A study of Homo sapiens with 12 samples.

Results

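The nuclear genes that encode subunits of the 5 oxidative phosphorylation complexes were followed through sucrose gradient fractions of human mammary epithelial cells with and without CBFB. Members were the protein-coding genes whose symbol begins with NDUFA, NDUFB, NDUFC, NDUFS or NDUFV (complex I, without the NDUFAF assembly factors), SDHA to SDHD (complex II), UQCR or CYC1 (complex III), COX4I, COX5, COX6, COX7 or COX8 (complex IV), or ATP5 (complex V). This rule uses names and no measured value, but it was set with earlier results of these data known. The rule found 91 genes of the 56632 in the tables, 40 of complex I (7 core and 33 accessory), 4 of complex II, 10 of complex III, 17 of complex IV and 20 of complex V. Because it works by name, it placed NDUFA4, which is now counted as a complex IV subunit, with complex I, and it took in COX7A2L, a factor that joins complexes III and IV, and ATP5IF1, the inhibitor of ATP synthase. NDUFC2-KCTD14 and ATP5MF-PTCD1 are read-through genes and UQCRHL is a near-identical copy of UQCRH, so reads can be split between them and their partners and their values are uncertain.

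The cells were MCF10A, a non-tumorigenic mammary epithelial line, grown with horse serum, insulin, epidermal growth factor, hydrocortisone and cholera toxin, as wild type (WT) or after CRISPR-Cas9 deletion of CBFB (CBFB_KO). CBFB is the partner subunit of the RUNX transcription factors, and the comparison asks how its loss changes the loading of messenger RNAs on ribosomes. Both genotypes were exposed to 100 µg/ml cycloheximide, which holds elongating ribosomes on the messenger, for 30 min, and lysates were spun for 2 h on a gradient of 10 to 50% sucrose. RNA was taken from the ribosome-free (free), single-ribosome (mono) and polyribosome (poly) fractions, giving 6 groups of 2 libraries, 12 in all. The labels do not say whether the knockout line was 1 clone, nor whether the 2 libraries of a group came from separate cultures. The p-values thus measure a spread between libraries of the same group, which may be technical. That spread was pooled over all 6 groups, so it is not the spread of the compared libraries alone.

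Oxidative phosphorylation passes electrons from NADH (complex I) and succinate (complex II) through ubiquinol to complex III, by cytochrome c to complex IV and on to oxygen, and the proton gradient so made drives ATP synthase, complex V. Most subunits are encoded in the nucleus, made on cytosolic ribosomes and imported, and a small set is encoded by mitochondrial DNA and made inside the organelle. Many of the nuclear genes encode very small proteins, and their promoters are known for sites of NRF1, ETS factors such as GABPA, and YY1.

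Library totals were 41050325 to 63886726 counts. The share of counts from mitochondrially encoded genes was 1.26 to 1.60% in poly, 4.20 to 8.08% in mono, 11.1 and 20.8% in WT free, and 71.6 and 87.2% in CBFB_KO free, where 13568143 and 5247878 counts were left for nuclear genes. Counts were scaled by TMM (trimmed mean of M-values), and CPM below means counts per 1000000 on that scale. A level is therefore relative to the other RNAs of its own library, and the amount of RNA in a fraction was not measured. CBFB itself measured 5.37 and 12.6 CPM in WT free, 11.3 and 14.1 in CBFB_KO free, 8.03 and 6.20 in WT mono, 4.79 and 3.89 in CBFB_KO mono, 5.72 and 6.84 in WT poly and 3.59 and 4.01 in CBFB_KO poly, and none of the 3 genotype comparisons passed the test, so its RNA neither bears out nor contradicts the labels. The 2 CBFB_KO poly libraries differed by a mean chi-square of 2.22 per gene, against 122.6 to 953.6 in the other pairs. They were kept as 2 samples. Values with the pair counted as 1 sample are given where the number of members called by adjusted p differs. Of the cell type lists, basal mammary epithelial markers (8 genes) summed to 408 to 5926 nuclear TPM per library and luminal markers (6 genes) to 140.0 to 892, the basal sum being the higher in all 12 (nuclear TPM is defined with the levels below). Fibroblast markers (6 genes) summed to at most 3.82 and blood cell markers (5 genes) to at most 27.1.

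Sequences of 2 promoters and 3 coding regions are shown. The promoters are those of ATP5PF and COX6A1, both given by RefSeq on GRCh38.p14, which is not the hg19 build of the count tables. In the 250 bases before the start ATP5PF alone held letters of all 3 of NRF1, ETS and YY1. COX6A1 held those of NRF1 and ETS and is shown as an example. Capitals mark GCGCATGCG (NRF1), CCGGAAG (ETS) and AAGATGGCG (YY1) or their reverse complements. ATP5PF encodes coupling factor 6 of the ATP synthase stalk and lies on the minus strand with this window at chr21:25735055-25735304, and COX6A1 encodes the widely expressed form of complex IV subunit 6A and lies on the plus strand at chr12:120437863-120438112.
ATP5PF: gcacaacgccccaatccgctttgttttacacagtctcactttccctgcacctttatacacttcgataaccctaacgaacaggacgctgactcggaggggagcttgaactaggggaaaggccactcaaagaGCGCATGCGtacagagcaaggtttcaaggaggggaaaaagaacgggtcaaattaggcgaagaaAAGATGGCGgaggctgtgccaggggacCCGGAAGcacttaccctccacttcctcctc
COX6A1: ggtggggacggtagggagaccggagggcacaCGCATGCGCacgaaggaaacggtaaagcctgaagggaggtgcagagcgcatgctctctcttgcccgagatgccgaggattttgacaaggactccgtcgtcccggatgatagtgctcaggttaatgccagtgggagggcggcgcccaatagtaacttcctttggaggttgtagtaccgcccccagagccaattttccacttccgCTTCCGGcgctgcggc
In ATP5PF the NRF1 letters begin 120 bases, the YY1 letters 57 bases and the ETS letters 30 bases before the start. In COX6A1 the NRF1 letters begin 219 bases and the ETS letters 16 bases before it. Promoter windows of 300 bases (250 before and 50 after the start) were found for 71 of the 91 members, and both strands were searched. The NRF1 letters were in 10 of the 71 (14.1%), against 2.76% of 15843 protein-coding promoters, the ETS letters in 20 (28.2%) against 14.2%, and the YY1 letters in 8 (11.3%) against 2.74%. At least 1 of these 3 was in 31 windows (43.7% against 18.3%). TATAAA was in 7 (9.86% against 9.63%), and TGTGGT, the core letters that RUNX proteins bind, was in 13 (18.3% against 10.8%). These are matches of letters in a window and not mapped sites.

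The coding sequences are those of 3 of the members with the lowest poly to mono ratio in WT cells, shown as examples of the short messages at the low end of that ratio. NDUFC1 is an accessory subunit of complex I, and ATP5MK and ATP5ME are small membrane subunits of ATP synthase. Capitals mark the start and stop codons, and the sequences are of the transcripts of GENCODE 29 on GRCh38 that give the coding lengths used below.
NDUFC1: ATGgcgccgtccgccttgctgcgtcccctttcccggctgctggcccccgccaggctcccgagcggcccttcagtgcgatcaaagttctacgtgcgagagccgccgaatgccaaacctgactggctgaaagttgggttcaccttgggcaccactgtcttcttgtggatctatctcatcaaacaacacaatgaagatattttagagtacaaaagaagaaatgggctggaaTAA
ATP5MK: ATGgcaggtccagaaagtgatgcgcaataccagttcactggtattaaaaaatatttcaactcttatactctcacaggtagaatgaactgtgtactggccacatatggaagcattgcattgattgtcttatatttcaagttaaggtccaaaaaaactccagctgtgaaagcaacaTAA
ATP5ME: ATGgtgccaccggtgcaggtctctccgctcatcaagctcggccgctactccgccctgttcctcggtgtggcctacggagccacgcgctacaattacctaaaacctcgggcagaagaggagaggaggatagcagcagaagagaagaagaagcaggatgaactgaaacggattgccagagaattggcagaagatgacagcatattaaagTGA
These hold 231, 177 and 210 bases with the stop codon. The members' coding regions ran from 51 to 749 codons with a median of 128, against a median of 456 codons over all protein-coding genes tested. The length of a gene was taken as the longest coding region among its principal transcripts.

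To compare genes with each other, the deposited TPM (transcripts per 1000000, which divides by length) was rescaled to its usual total after mitochondrially encoded genes were left out, and is called nuclear TPM. The members summed to 17268 and 25550 nuclear TPM in WT free, to 14766 and 16799 in CBFB_KO free, to 39402 to 41550 in the 4 mono libraries and to 42072 to 44132 in the 4 poly libraries. Subunits thus made up more of the ribosome-bound messages than of the free RNA in every library, and the 2 genotypes overlapped in mono and in poly. Complex V gave the highest sum of any complex in all 12 libraries, and over all members both CBFB_KO free sums lay below both WT free sums.

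**Figure D1:**
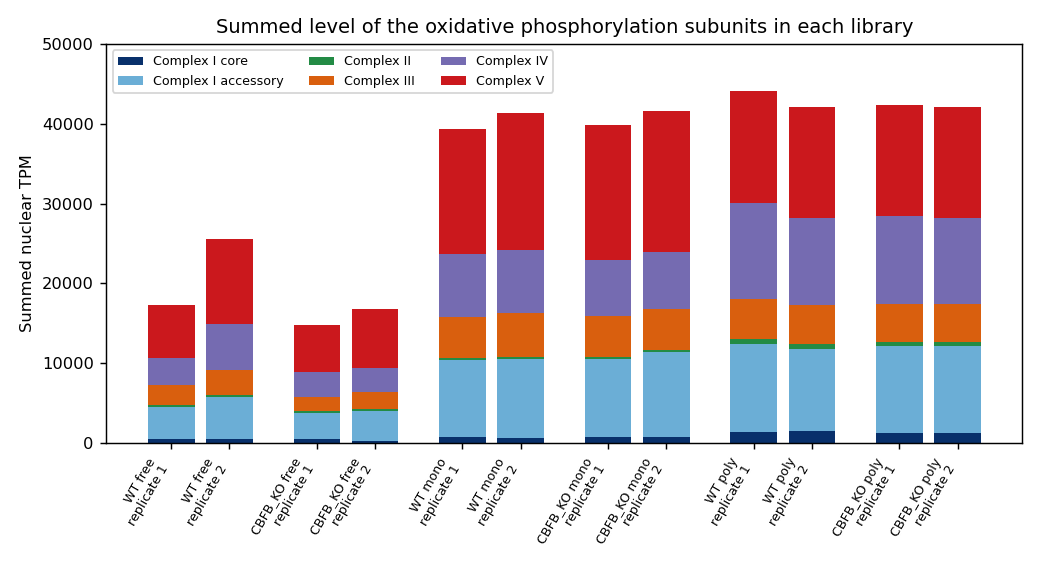
Summed nuclear TPM (length-scaled level without mitochondrially encoded genes) of the subunits of each complex in each of the 12 libraries, as stacked bars coloured by complex. The 4 free libraries sum to between 14766 and 25550 and the 8 ribosome-bound libraries to between 39402 and 44132.

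The most abundant member per length was a small subunit of ATP synthase, which also had the shortest effective transcript length of the tested members (171 bases). ATP5MF, a membrane subunit, was first in all 6 groups by mean nuclear TPM, at 1821 ± 877 in WT free, 4673 ± 259 in WT mono and 2302 ± 31.8 in WT poly (SD, n = 2), and at 1379 ± 453, 4671 ± 188 and 2290.5 ± 19.0 in the corresponding CBFB_KO groups. SDHA, the flavoprotein of complex II and one of the longest members, was at 13.1 in WT free, 8.78 in WT mono and 113.7 in WT poly. NDUFS1, the largest core subunit of complex I, was at 2.14, 1.02 and 21.7.

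Subunit isoforms known from particular tissues were at or near 0. COX4I2 (lung), COX6A2 and COX7A1 (heart and muscle) and COX7B2 (testis) had no count in any of the 12 libraries, which allows up to 3 counts of each library's total. COX8C had at most 6 counts in a library, and ATP5MGL, a retrogene copy of ATP5MG, at most 2. These 6 did not pass the filter on low counts, so 85 of the 91 members were tested among 16275 genes. COX6B2, the testis form of subunit 6B, passed the filter at no more than 0.71 CPM in any library, while its common form COX6B1 was at 75.9 to 882 CPM. NDUFA4L2 passed at 0.44 to 3.23 CPM.

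In WT cells the poly to mono ratio was set out by size: the long catalytic subunits lay toward poly and the small ones toward mono. SDHA measured 16.0 and 11.8 CPM in WT mono and 83.0 and 149 in WT poly. Both poly libraries lay above both mono libraries, and the log2 fold change was 3.06 ± 0.48 (SE; adjusted p = 0.00372) by the quasi-likelihood test of edgeR, with p-values adjusted by Benjamini-Hochberg over all genes. NDUFS1 went from 3.54 and 5.82 CPM to 17.4 and 46.6, a log2 change of 2.78 ± 0.59 (SE; adjusted p = 0.00879). ATP5F1B, the catalytic beta subunit of ATP synthase, was the highest member of WT poly in CPM, at 207 and 180.1 in mono and 959 and 1177 in poly, with a log2 change of 2.46 ± 0.35 (SE; adjusted p = 0.00328).

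At the other end stood small subunits, among them the 3 whose coding sequences are printed above. NDUFC1 measured 303 and 413 CPM in WT mono and 56.7 and 48.1 in WT poly, with a log2 change of -2.77 ± 0.53 (SE; adjusted p = 0.00572). ATP5MF went from 1288 and 1696 to 259.8 and 220.5 CPM, a log2 change of -2.64 ± 0.44 (SE; adjusted p = 0.00425). ATP5MK went from 567 and 901 to 131 and 107 CPM, a log2 change of -2.62 ± 0.60 (SE; adjusted p = 0.0114), and ATP5ME was at -2.55 ± 0.41 (SE; adjusted p = 0.00386). In these small subunits the lowest mono library was several times the highest poly library, the reverse of the order in SDHA and ATP5F1B.

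By count, 31 members were lower and 10 higher in poly than in mono at an adjusted p under 0.05, where 9.68% of all genes tested were lower and 11.0% higher, and the median log2 change was -0.95 over the members and -0.04 over all genes. All 10 that were higher had more than 250 codons, among them SDHA, NDUFS1, ATP5F1B, UQCRC2 (2.26), NDUFA10 (2.19), UQCRC1 (2.12), NDUFV1 (1.69), ATP5F1A (1.41) and ATP5F1C (1.29), in log2. Of these, NDUFS1 and NDUFV1 belong to the arm through which complex I passes electrons from NADH to quinone, UQCRC1 and UQCRC2 are the large core proteins of complex III, and ATP5F1A, ATP5F1B and ATP5F1C form the catalytic head and central shaft of ATP synthase. Among the 51 tested members of at most 150 codons, 28 were lower (54.9%) and 0 higher by this test (unadjusted p under 0.05: 39 lower and 0 higher), with a median of -1.35. Of all 975 protein-coding genes of that size 47.0% were lower, with a median of -1.56, so the members' share was near the background. The 17 members of over 150 and up to 250 codons had 3 lower (17.6%) and 0 higher by edgeR (unadjusted p under 0.05: 7 and 0), with a median of -0.73. Over all 1787 genes of that size 18.6% were lower and 1.06% higher, with a median of -0.79. Of the 17 members of more than 250 codons 10 were higher (58.8%) and 0 lower by edgeR (unadjusted p under 0.05: 11 and 0), with a median of 1.41. Over 10350 genes of that size 16.6% were higher and 3.14% lower, with a median of 0.52.

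Across the 85 members, Spearman's rank correlation between coding length and the log2 of the poly to mono ratio was 0.72 in WT (0.70 and 0.75 in replicates 1 and 2) and 0.68 in CBFB_KO (0.67 and 0.68). Over 13112 protein-coding genes it was 0.52 and 0.49. These points are genes of the same libraries and not independent replicates. With the effective length of the transcript in place of the coding length, the rank correlation over the members was 0.49 in WT and 0.47 in CBFB_KO.

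**Figure D2:**
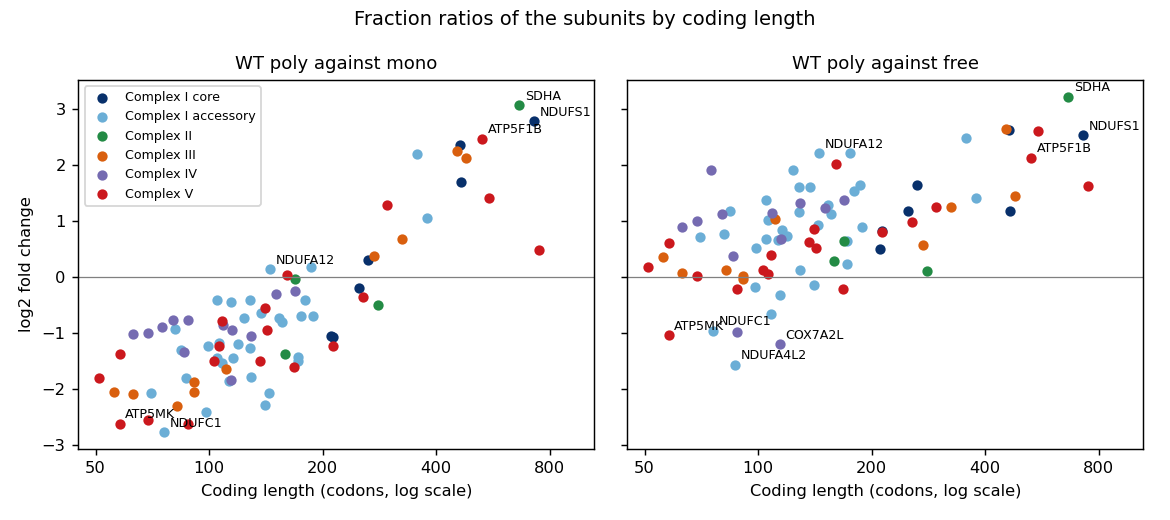
Log2 fold change of each of the 85 tested members in WT cells against its coding length in codons (log axis), for poly against mono (left) and poly against free (right), coloured by complex. SDHA, at 3.06, and NDUFS1, at 2.78, stand highest on the left, and NDUFC1, at -2.77, stands lowest there.

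The poly to mono values of each complex are given as a description, with no test between complexes, and no tested member of complex IV has more than 250 codons. Complex IV had no member toward poly by point estimate, with a median of -0.93 over 12 tested members and values from -1.84 (COX7A2L) to -0.26 (COX4I1, its longest common subunit), of which 2 passed the test as lower, COX7A2L and COX6B1 (-1.35). COX5A (-0.31), COX5B (-1.05), COX6A1 (-0.86), COX6C (-0.90), COX7A2 (-0.95), COX7B (-0.78) and COX7C (-1.02) did not pass, nor did COX8A. Complex III was split, with 5 members lower and 2 higher. Its small subunits UQCRQ (-2.32) and UQCRH (-1.88) were lower in poly, while CYC1 (0.68), the cytochrome c1 heme protein, and UQCRFS1 (0.37), the Rieske iron-sulfur protein, did not pass. In complex II only SDHA passed, and SDHB, SDHC and SDHD were at -0.51, -0.05 and -1.38. In complex V, 9 members were lower and 3 higher. The small epsilon subunit ATP5F1E (-1.80), ATP5PO (-1.23) of the stalk and ATP5MC1 (-1.50), one of the genes of the rotor ring, were lower, and the delta subunit ATP5F1D (-1.61), ATP5MC2 (-0.56) and ATP5MC3 (-0.95) did not pass. With transcript length entered as an offset per library, 5 members were lower and 11 higher, and the members' median was -0.12, so that most calls of lower levels in poly were lost. With the CBFB_KO poly pair counted as 1 sample, 18 were lower and 7 higher. The fits without WT replicate 1 or 2 called 0 members lower by edgeR (unadjusted p under 0.05: 30 and 13).

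Against the free fraction the picture was more one-sided: 27 members were higher in WT poly than in WT free and 0 were lower by edgeR (unadjusted p under 0.05: 37 higher and 2 lower). DESeq2 called 31 higher and 2 lower. Of all genes tested, 14.0% were higher and 7.99% lower, and the median log2 change was 0.84 over the members and 0.08 over all genes. SDHA measured 8.39 and 16.4 CPM in free against the poly values above, with a log2 change of 3.22 ± 0.48 (SE; adjusted p = 0.00208). ATP5F1A, the alpha subunit of ATP synthase, measured 76.3 and 48.0 CPM in free and 300.1 and 458 in poly, a log2 change of 2.61 ± 0.43 (SE; adjusted p = 0.00297). UQCRC2 went from 13.5 and 10.6 to 58.0 and 92.8 CPM, a log2 change of 2.64 ± 0.49 (SE; adjusted p = 0.00465). For all 3 of these, both poly libraries lay far above both free libraries.

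The members toward poly were not the long ones alone. Complex IV had 5 of 12 tested members higher: COX6C (1.91), COX4I1 (1.37), COX5B (1.31), COX5A (1.23) and COX6A1 (1.14). The accessory subunits of complex I had 12 of 33 higher, among them NDUFA12 (2.20) and NDUFS4 (2.21), and its core had 3 of 7, among them NDUFS1 (2.53) and NDUFS3 (1.64). Complex V had 4 of 19, ATP5F1A, ATP5F1B (2.13), ATP5PD (2.01) and ATP5F1C (1.25). In the smallest class the members' median was 0.61, where all protein-coding genes of at most 150 codons had -0.42, and for members over 250 codons it was 1.63 against 0.48. The lowest values were those of NDUFA4L2 (-1.57 ± 0.62 (SE)), COX7A2L (-1.20 ± 0.46 (SE)) and ATP5MK (-1.05 ± 0.57 (SE)), which did not pass (adjusted p = 0.0889, 0.0790 and 0.201 by edgeR). The rank correlation with coding length was 0.57 in WT, at 0.35 in replicate 1 and 0.70 in replicate 2, and 0.33 over all protein-coding genes. On effective length it was 0.26 over the members and 0.27 over all. With the CBFB_KO poly pair counted as 1 sample, 16 members were higher, and without WT replicate 1 or 2 it was 7 or 8. With the length offset it was 32.

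Between CBFB_KO and WT cells, members passed the test in the free fraction when all 12 libraries were fitted together. There 41 members were lower and 4 higher in CBFB_KO, with a median log2 change of -1.09 against 0.04 over all genes, while 18.1% of all genes were lower and 24.2% higher. Fitted on the 4 free libraries alone, edgeR called 0 members (unadjusted p under 0.05: 12 lower and 3 higher), where 0.676% of all genes were lower and 12.7% higher. Both CBFB_KO libraries lay below both WT libraries for 62 of the 85 members (72.9%), against 31.5% of all genes, and above them for 7 (8.24%). Every complex had members that fell: 5 of 7 in the complex I core, 12 of 33 accessory subunits, 2 of 4 in complex II, 7 of 10 in complex III, 8 of 12 in complex IV and 7 of 19 in complex V.

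**Figure D3:**
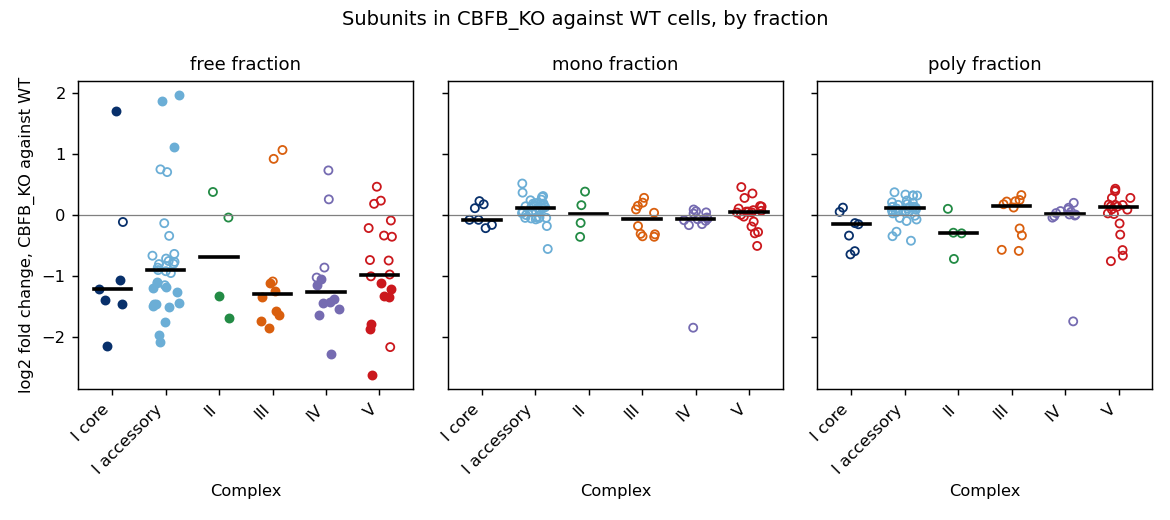
Log2 fold change of CBFB_KO against WT for each tested member in the free, mono and poly fractions, by complex. Filled points have an adjusted p under 0.05, open points do not, and black lines are medians of each complex. In free 41 members are lower and 4 higher (0 higher without TMM factors), and every point in mono and poly is open.

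The largest fall was that of ATP5F1D, the delta subunit in the central stalk of ATP synthase. It measured 256 and 137 CPM in WT free and 50.3 and 13.1 in CBFB_KO free, a log2 change of -2.63 ± 0.59 (SE; adjusted p = 0.00653). COX7A2L measured 299.96 and 168.8 CPM in WT free and 66.6 and 29.8 in CBFB_KO free, a log2 change of -2.28 ± 0.47 (SE; adjusted p = 0.00453). NDUFS8, which carries iron-sulfur clusters of complex I, measured 112 and 63.6 and 27.7 and 11.9 CPM, a log2 change of -2.14 ± 0.48 (SE; adjusted p = 0.00670). In each of the 3 the higher CBFB_KO library stayed below the lower WT library, and the ratio between the 2 CBFB_KO libraries was larger than that between the 2 WT libraries.

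Other subunits that fell, in log2, were NDUFV1 (-1.46), NDUFS7 (-1.39), NDUFV2 (-1.22) and NDUFS3 (-1.06) of the complex I core, SDHB (-1.69) and SDHC (-1.33) of complex II, and UQCRFS1 (-1.85), CYC1 (-1.57), UQCRH (-1.25) and UQCRQ (-1.11) of complex III. In complex IV, COX8A (-1.64), COX6B1 (-1.55), COX6A1 (-1.44), COX7A2 (-1.43), COX5B (-1.37), COX5A (-1.15) and COX4I1 (-1.05) fell. In complex V the 3 rotor ring genes ATP5MC3 (-1.87), ATP5MC1 (-1.34) and ATP5MC2 (-1.32) fell. Not past the test were the large catalytic subunits ATP5F1B (-0.21) and ATP5F1A (0.46), as well as ATP5F1C (-0.36), ATP5F1E (-0.34), ATP5PO (-0.98), SDHA (0.38), SDHD (-0.04), UQCRC1 (-1.09), UQCRC2 (1.07), COX7C (-0.86), COX7B (-1.03), COX6C (0.26) and the read-through ATP5MF-PTCD1 (-2.17).

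All 4 members that rose belong to complex I. NDUFA5, an accessory subunit of its peripheral arm, measured 3.72 and 3.52 CPM in WT free and 7.05 and 21.4 in CBFB_KO free, a log2 change of 1.96 ± 0.57 (SE; adjusted p = 0.0198). NDUFS4, an accessory subunit needed for complex I assembly, went from 3.70 and 6.69 to 12.4 and 25.7 CPM (1.87 ± 0.53 (SE) in log2), NDUFS1 from 6.99 and 4.09 to 13.8 and 22.6 (1.71 ± 0.57 (SE)), and NDUFA10 from 12.6 and 11.4 to 25.4 and 26.4 (1.11 ± 0.34 (SE)). The WT and CBFB_KO libraries did not overlap for any of the 4. These rises depended on the scaling: without TMM factors the log2 change was 0.01 for NDUFA5, -0.02 for NDUFS4, -0.08 for NDUFS1 and -0.58 for NDUFA10, none past the test, and with transcript length as an offset NDUFS1 was at 0.57 and did not pass.

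Several measured features moved with this difference. The mitochondrial share of the CBFB_KO free libraries was 71.6 and 87.2%, and all 13 mitochondrially encoded subunits were higher there (median log2 change 4.63). Short genes as a whole were lower: over all protein-coding genes of at most 150 codons the median was -1.12, against -1.12 over the members of that size, while over genes of more than 250 codons it was 0.63 against -0.36 over the members. With transcript length as an offset, 19 members were lower and 8 higher and their median was -0.19, against -0.27 over all genes, and ATP5MC1, ATP5MF, ATP5MK, NDUFB7, UQCRHL and UQCRQ, which had fallen, were above 0. The part that library make-up and transcript length had in the members' fall was not tested. Without CBFB_KO free replicate 2, the library with the highest mitochondrial share, 41 members were lower and 1 higher. With the CBFB_KO poly pair counted as 1 sample, 25 were lower and 2 higher. Without any 1 numbered replicate of a genotype, 4 to 25 were lower, the lowest count without CBFB_KO replicate 2.

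In the mono and poly fractions no member passed the test between genotypes. In mono, 0 of 85 were called by edgeR and by DESeq2, and 0 had an unadjusted p under 0.05, where 0.147% of all genes were called in either direction. The median log2 change was 0.04, and apart from COX6B2 (-1.85 ± 1.52 (SE)) the members lay between -0.56 (NDUFA4L2) and 0.52 (NDUFC2-KCTD14). ATP5F1A was at -0.51 ± 0.41 (SE), ATP5ME at 0.46 ± 0.39 (SE) and SDHC at 0.38 ± 0.40 (SE). The SE had a median of 0.40 over the members, so differences of the size of the last 3 could not be told from the spread.

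In poly, 0 of 85 were called by edgeR and by DESeq2, and 1 had an unadjusted p under 0.05, where 0.19% of all genes were called. The median log2 change was 0.08. The point estimates followed coding length: all 17 members of more than 250 codons were below 0, with a median of -0.42, and 44 of the 51 members of at most 150 codons were above 0, with a median of 0.13. Over all protein-coding genes the corresponding medians were -0.11 and 0.19, and the rank correlation with coding length was -0.61 over the members and -0.31 over all. Among protein-coding genes, 6241 of 10350 over 250 codons were below 0 and 714 of 975 of at most 150 codons were above 0. ATP5F1B was the member with the unadjusted p under 0.05 in the edgeR fit of all 12 libraries. It measured 959 and 1177 CPM in WT poly and 635 and 628 in CBFB_KO poly, with a log2 change of -0.76 ± 0.33 (SE). SDHA measured 83.0 and 149 and 69.8 and 70.8 CPM (-0.72 ± 0.44 (SE)), and UQCRC1 299 and 319.9 and 210.0 and 206 CPM (-0.57 ± 0.40 (SE)). The libraries of the 2 genotypes did not overlap for these 3 genes. Over all members they did not overlap for 18 that were lower (21.2%) and 23 that were higher (27.1%), against 25.03 and 24.65% of all genes. At the other end, ATP5ME was at 0.43 ± 0.39 (SE), ATP5F1E at 0.40 ± 0.51 (SE) and ATP5MK at 0.39 ± 0.56 (SE), and the lowest value was that of COX6B2, at -1.74 ± 1.50 (SE) and under 1 CPM. Fitted on the poly libraries alone, edgeR called 0 members (unadjusted p under 0.05: 9 lower and 6 higher).

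The study's question of ribosome loading is put by the poly to free ratio in CBFB_KO against that in WT, tested as an interaction. For 13 of the 85 members this ratio differed, 12 being higher and 1 lower in CBFB_KO cells, and the point estimates of 68 members were above 0 and of 17 below. The median log2 difference was 1.12 over the members, against -0.10 over all genes, of which 4.1% were called higher and 14.3% lower. Among members of at most 150 codons 10 of 51 were higher, against 214 of 975 protein-coding genes of that size. Over 150 and up to 250 codons it was 2 of 17 against 166 of 1787, and over 250 codons 0 of 17 against 120 of 10350. The shares of members called higher were thus near those of genes of their size. The 12 were ATP5F1D, NDUFA13, COX7A2L, NDUFS8, NDUFA11, NDUFA2, ATP5MC3, UQCRHL, UQCR10, COX6B1, UQCR11 and COX8A, with members from every complex but II, and the 1 lower was NDUFA10. All 13 also passed the test between genotypes in free, and none did in poly, which are the same libraries and not separate evidence.

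**Figure D4:**
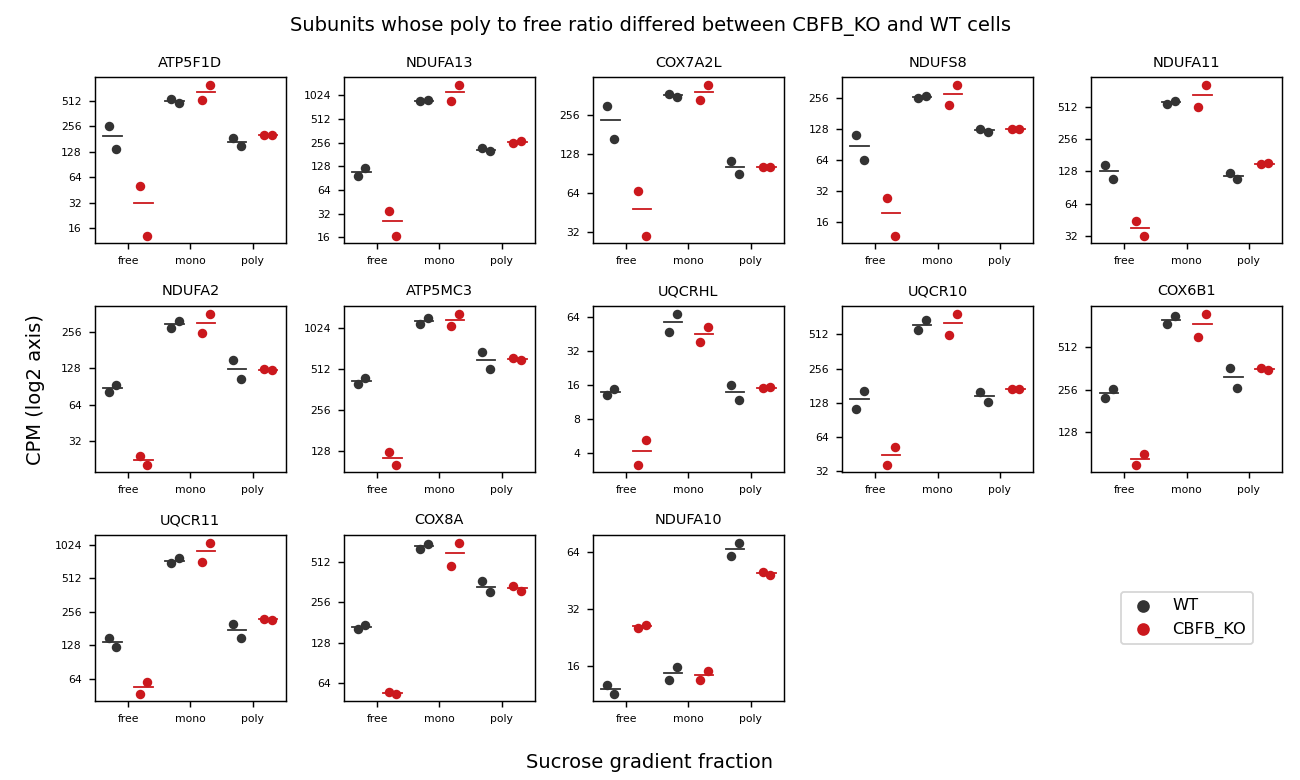
CPM (log2 axis) of each library in the 3 fractions for the 13 members whose poly to free ratio differed between genotypes (adjusted p under 0.05), WT in grey and CBFB_KO in red, with lines at the group means. For 12 genes the CBFB_KO free libraries lie below the WT free libraries, for NDUFA10 they lie above, and for the 12 the genotype means in poly lie much closer together than in free.

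ATP5F1D, whose free values stand above, measured 185 and 152 CPM in WT poly and 204 and 205 in CBFB_KO poly, and its interaction was 2.91 ± 0.80 (SE; adjusted p = 0.0295). NDUFA13, an accessory subunit also known as GRIM-19, measured 96.8 and 122 and 34.5 and 16.8 CPM in WT and CBFB_KO free, and 219 and 198 and 255 and 265 in poly, with an interaction of 2.41 ± 0.60 (SE; adjusted p = 0.0194). COX8A, a small membrane subunit of complex IV, measured 163 and 175 and 55.2 and 53.3 CPM in free and 369 and 304 and 339.5 and 313 in poly, with an interaction of 1.59 ± 0.50 (SE; adjusted p = 0.0456). In each the genotypes did not overlap in free, and in poly their means stood much closer together, with overlap for COX8A.

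NDUFA10, an accessory subunit of the matrix arm, moved the other way. It measured 61.2 and 71.9 CPM in WT poly and 50.6 and 48.8 in CBFB_KO poly beside its rise in free, and the interaction was -1.53 ± 0.47 (SE; adjusted p = 0.0434). NDUFS1 had the larger estimate of -2.36 ± 0.79 (SE) and did not pass (adjusted p = 0.0578 by edgeR), nor did NDUFA5 (-1.83 ± 0.78 (SE)), COX6B2 (-2.48 ± 2.09 (SE)) or, on the high side, ATP5MK (2.18 ± 0.80 (SE)).

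The interaction calls were less firm than the direction. All 13 genes kept their direction in all alternatives except UQCRHL with the length offset and NDUFA10 without TMM factors, but 0 members were called higher with the CBFB_KO poly pair counted as 1 sample (edgeR; unadjusted p under 0.05: 19 higher and 2 lower), and 25 with DESeq2. With a block for each gradient, edgeR called 5 higher and 0 lower (unadjusted p under 0.05: 33 and 5). With transcript length as an offset, 4 were higher and 2 lower and the members' median was 0.07, against 0.29 over all genes. In the smallest class the members' median of 1.21 stood beside 1.34 over all protein-coding genes of at most 150 codons, and for members over 250 codons it was 0.03 beside -0.73. The mitochondrial share of the CBFB_KO free libraries moves with this result as well, and its part was not tested.

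The study's own criterion was a poly to free ratio in CBFB_KO below 0.5 of that in WT. The paper does not say which measure, scaling or minimum level it used for this ratio. Those below were chosen here, so the shares cannot be set directly against the ones the paper gives. On the deposited FPKM, averaged over replicates and with a mean of at least 1 in each of the 4 groups, 0 of 82 members were below 0.5 and 76 were above 2 times, against 8.1 and 70.1% of 7126 genes. The median log2 of this ratio was 2.81 over the members and 2.14 over all these genes. FPKM is relative to all counts, the mitochondrial ones included, and the part this had in the medians was not tested. With TMM-scaled CPM in place of FPKM, 7 members were below 0.5 (8.54%) and 46 above 2 times (56.1%), against 27.4 and 39.4% of all genes. With each ratio divided by the median over all genes, 8 were below (9.76%) and 24 above (29.3%), against 31.9 and 25.7%, so that the share above was near that of all genes. No test goes with these counts.

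The poly to mono ratio, which leaves the free libraries aside, did not differ detectably between genotypes for any member. By edgeR and by DESeq2, 0 of 85 were called, 0 had an unadjusted p under 0.05, and 0.0% of all genes were called. The median log2 difference was 0.01 with a median SE of 0.57. Among the lowest values were those of SDHA (-0.88 ± 0.63 (SE)) and NDUFC2-KCTD14 (-0.86 ± 0.83 (SE)), and the highest were those of NDUFA4L2 (0.58 ± 0.87 (SE)), UQCRH (0.49 ± 0.58 (SE)) and UQCRHL (0.47 ± 0.55 (SE)). For members of more than 250 codons 16 of 17 estimates were below 0, with a median of -0.23. Over all protein-coding genes of that size 6297 of 10350 were below 0, with a median of -0.12.

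Genes that serve the same pathway were read beside the subunits. Of 48 tested assembly factors, the proteins that build the complexes without staying in them, 23 were lower and 4 higher in CBFB_KO free (median log2 change -1.15), 0 were called in mono or in poly by edgeR and by the unadjusted p, and 11 had a higher and 3 a lower poly to free ratio in CBFB_KO. In WT cells 17 were lower and 5 higher in poly than in mono. Of all genes tested, 18.1% were lower and 24.2% higher in CBFB_KO free, and 0.147% were called in mono and 0.19% in poly. The poly to free ratio in CBFB_KO was higher for 4.1% and lower for 14.3% of all genes. In WT poly 9.68% were lower and 11.0% higher than in mono, and 7.99% lower and 14.0% higher than in free. CYCS, cytochrome c, was at 0.50 ± 0.48 (SE) between genotypes in free and did not pass (adjusted p = 0.414 by edgeR). Of 10 regulators of these genes, 3 were lower in CBFB_KO free, NRF1 (-2.29), ESRRA (-2.79) and GABPB1 (-1.37), and 5 higher, PPRC1 (5.16), YY1 (1.39), GABPA (1.96), TFB2M (1.79) and PPARGC1A, which had few counts. None of the 10 passed in mono or poly, and 1 had an unadjusted p under 0.05 in each, PPARGC1A. The 13 mitochondrially encoded subunits, which are made by ribosomes of the organelle, were lower in WT poly than in WT free (13 of 13, median log2 change -3.60), the opposite direction to the nuclear members, and 0 of 13 differed between genotypes in mono or in poly by edgeR or by the unadjusted p.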

How the data were processed

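RNA of each fraction was sequenced in 12 libraries. The labels name a TruSeq mRNA kit, whereas the study's methods describe removal of ribosomal RNA, and which was used was not settled here. Per the labels and the submitters' processing notes, reads were trimmed with Trimmomatic and aligned and quantified with STAR and RSEM on hg19, and the deposited tables give expected counts, TPM and FPKM per gene, with versions not given in the sources used here. Rounded expected counts were fitted with edgeR 4.0.16 (quasi-likelihood, TMM, filterByExpr) as 1 mean per group over all 12 libraries, with Benjamini-Hochberg adjustment over 16275 genes at 0.05. DESeq2 1.42.0 was an alternative. Only the edgeR fit of the poly to free interaction was tested on simulated data, which had the same spread for all genes and groups. With 2 libraries per group, a permutation test cannot go below p = 0.33, so none was used. Symbols matched 49995 of 56632 genes, and coding lengths came from GENCODE 29. The members and lists were chosen with earlier results of these data known. Named genes were the core and common subunits, the members called between genotypes in mono, poly or an interaction, the 3 lowest and 3 highest log2 changes in each contrast, the tissue isoforms and CBFB, except where a result is not reported here. The other genes named in the text, among them accessory subunits and regulators, were chosen after their values were seen. Counting without strand cannot separate overlapping antisense genes.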

Additional observations from a re-analysis of the deposited data

Results flagged for a closer look

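The poly to free ratio differed between CBFB_KO and WT cells for 13 members by the interaction test of edgeR (adjusted p under 0.05), each value being the log2 ratio in CBFB_KO minus that in WT. It was higher for ATP5F1D (2.91), NDUFA13 (2.41), COX7A2L (2.27), NDUFS8 (2.19), NDUFA11 (2.13), NDUFA2 (1.96), ATP5MC3 (1.89), UQCRHL (1.86), UQCR10 (1.85), COX6B1 (1.75), UQCR11 (1.67) and COX8A (1.59), and lower for NDUFA10 (-1.53). UQCRHL shares nearly all its sequence with UQCRH, which was at 1.42 and did not pass (adjusted p = 0.101 by edgeR). Of all genes tested, 4.1% were called higher and 14.3% lower in this interaction. The CBFB_KO free libraries held 71.6 and 87.2% mitochondrially encoded counts, and the part this had in the 13 calls was not tested. How far the calls depended on the processing is given below.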

How the results depend on the processing

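Counts of members are given as lower and then higher where both are named. Without TMM factors the median of all genes shifts (by 1.54 in the poly to free interaction, -1.57 in CBFB_KO against WT free, 0.61 in WT poly against free and 0.81 in WT poly against mono), and 5 members were lower in WT poly than in mono, 73 lower and 0 higher in CBFB_KO free, and 0 lower and 62 higher in the interaction. Less the median of all genes, the members stood at 1.30 in that interaction and -1.28 in free, against 1.22 and -1.13 with TMM. With RLE factors 1 member was lower in WT poly than in free and 7 were higher in the interaction. With DESeq2 these were 2 lower, and 2 lower and 25 higher. Fitting only the libraries compared gave 47 lower in WT poly against mono, 0 and 0 in CBFB_KO free, and 0 and 4 in the interaction. The length offset gave 5 lower in WT poly against mono, 19 and 8 in CBFB_KO free and 2 and 4 in the interaction. Counting the CBFB_KO poly pair as 1 sample (added once the data had been seen) gave 16 higher in WT poly against free, 18 lower against mono, 25 and 2 in CBFB_KO free, and 0 and 0 in the interaction. Without CBFB_KO free replicate 2, counts were 1 and 37 in WT poly against free, 42 and 11 against mono, 41 and 1 in CBFB_KO free, and 1 and 16 in the interaction. Leaving out 1 numbered replicate of a genotype gave 7 to 22 higher in WT poly against free, 0 to 27 lower and 0 to 8 higher against mono, 4 to 25 lower and 0 to 4 higher in CBFB_KO free, and 0 to 1 lower and 0 to 7 higher in the interaction. In these fits a lone library is assumed to vary like the other groups.

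On the ratio criterion, TMM-scaled CPM gave 7 below and 46 above, division by the median 8 and 24, and leaving out a replicate 0 to 1 below. The rank correlation with length moved to 0.49 (WT poly to mono), 0.26 (WT poly to free) and 0.47 (CBFB_KO poly to mono) on effective length, and to 0.70 (CBFB_KO poly to mono) on genes with a mean of at least 1 CPM in every group. Of the 13 interaction genes, NDUFA10 turned to 0.16 without TMM factors and UQCRHL to -0.21 with the length offset. Correlations of replicate differences between fractions of the same genotype ran from -0.04 (WT free and mono) to 0.22 (WT mono and poly). Those across genotypes ran from -0.16 to 0.28 and do not bear on a shared gradient. The labels do not say that same-numbered libraries share a gradient, so the main fit did not pair them. With the replicate block, counts were 0 and 27 in WT poly against free, 32 and 10 against mono, 44 and 4 in CBFB_KO free, and 1 and 13 in the interaction. With a block for each gradient counts were 0 and 21 in WT poly against free, 23 and 8 against mono, and 0 and 5 in the interaction. The cause of these changes was not tested. Counts in mono and poly between genotypes, and in the poly to mono interaction, were 0 in all alternatives by adjusted p. Depth limits the CBFB_KO free libraries most, with 87173 and 45807 counts on members against 614181 to 1666007 in the WT libraries.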
